A study of Mus musculus with 6 samples.

Results

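The 10 genes described here belong to the NRF2 antioxidant response: Nfe2l2, Keap1, Slc7a11, Gclc, Gclm, Gsr, Txnrd1, Prdx1, Srxn1 and Nqo1. They were taken as a list of symbols from textbook knowledge of the pathway and not by a rule on their values. Earlier results of these data were known when the list was made. All 10 were found by Ensembl ID among the 55421 genes of the count table. RNA sequencing was done on mouse bone marrow-derived macrophages, cells that are grown in culture from progenitors of the marrow. Of the 6 libraries, 3 came from wells of wild type cells and 3 from wells of Tmem175flox/flox Lyz2-Cre+/- cells, which the genotype label lists as Tmem175-/- and which are called knockout here. The Cre recombinase is driven by Lyz2, a gene of myeloid cells, and no group had Cre alone or floxed alleles alone, so effects of either cannot be told apart from loss of Tmem175. The control label reads WT and nothing more. No treatment, age or sex is given, and the replicates are described as culture wells without a word on animals. Each p-value therefore reflects variation between wells, which may be technical.

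NRF2, the protein of Nfe2l2, is a transcription factor that switches on genes for the disposal of oxidants and electrophiles. Under resting conditions KEAP1 holds it in the cytosol and presents it to the CUL3 ubiquitin ligase for degradation, and modification of KEAP1 cysteines lets newly made NRF2 reach the nucleus. There it pairs with a small MAF protein and binds the antioxidant response element, a short DNA motif. Control of NRF2 lies largely at the level of the protein, so its target transcripts are the usual readout of its activity. In macrophages the pathway is known for tuning cystine uptake, glutathione and thioredoxin supply during the oxidative burst.

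Total counts ran from 24179548 to 31542741 per library. Tmem175, a lysosomal potassium and proton channel, stood at 14.3, 13.2 and 12.1 CPM (the count as a share of the library's TMM-scaled total, in the usual counts-per-million unit) in the knockout and at 32.8, 33.4 and 33.2 CPM in the wild type libraries, so the labels and the targeted gene went together. These counts are summed over the gene, deleted and remaining exons alike. Incomplete deletion and reads from the remaining exons therefore cannot be told apart. Lyz2, whose locus drives the Cre, stood at 23166, 23691 and 26123 CPM in knockout against 43932, 41780 and 49822 CPM in wild type libraries, also without overlap (log2 fold change -0.89, SE 0.08, adjusted p = 0.00415, edgeR). All 6 macrophage markers examined, among them Adgre1 and Csf1r, passed the filter on low counts, with a summed level of 8493 to 9314 CPM in knockout and 8390 to 9399 CPM in wild type libraries. The libraries also differed within the genotypes. The first principal component of all tested genes, with 29.3% of the variance, was only partly aligned with genotype: it placed knockout replicates 2 and 3 at 17.4 and 13.2 and wild type replicate 3 at 9.41, whereas wild type replicates 1 and 2 lay at -19.9 and -17.5 and knockout replicate 1 lay between, at -2.62. On the next component, with 20.6%, the genotypes did not overlap, with knockout at -15.1, -3.66 and -8.80 and wild type at 4.89, -0.911 and 23.5.

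The members covered a wide range of levels. On the RPKM scale, which is CPM divided by the length in kilobases of the union of annotated exons, Prdx1, the main cytosolic peroxiredoxin, was highest at 386 ± 27.8 for knockout and 368 ± 19.7 for wild type (mean and SD of 3 libraries, here and below in that order), above 99.3% of the tested genes. Nfe2l2 came second at 135 ± 3.43 and 135 ± 4.32 RPKM. Gsr at 31.5 ± 2.93 and 32.1 ± 0.608 RPKM and Srxn1 at 31.1 ± 1.59 and 29.4 ± 2.08 RPKM followed, and their ranges over the 6 libraries overlapped. Txnrd1 stood at 25.9 ± 0.716 and 24.6 ± 0.547 RPKM, Keap1 at 15.2 ± 0.945 RPKM in knockout and 14.2 to 17.5 RPKM over all 6 libraries, and Gclm at 11.7 ± 1.60 and 10.8 ± 0.455 RPKM. Gclc lay between 6.53 and 7.58 RPKM over the 6 libraries. The lowest were Slc7a11 at 2.43 ± 0.309 and 2.45 ± 0.205 RPKM and Nqo1 at 1.90 ± 0.236 and 2.06 ± 0.0828 RPKM, whose ranges overlapped. Nqo1, often used as the marker transcript of the pathway, thus exceeded only 35.2% of the tested genes, while the gene of the factor itself exceeded 97.6%. With the coding length in place of the exon union, Prdx1, Nfe2l2 and Nqo1 held their places, Gsr went from rank 3 to 6, Gclm from 7 to 5, and Gclc and Slc7a11 changed places.

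**Figure D1:**
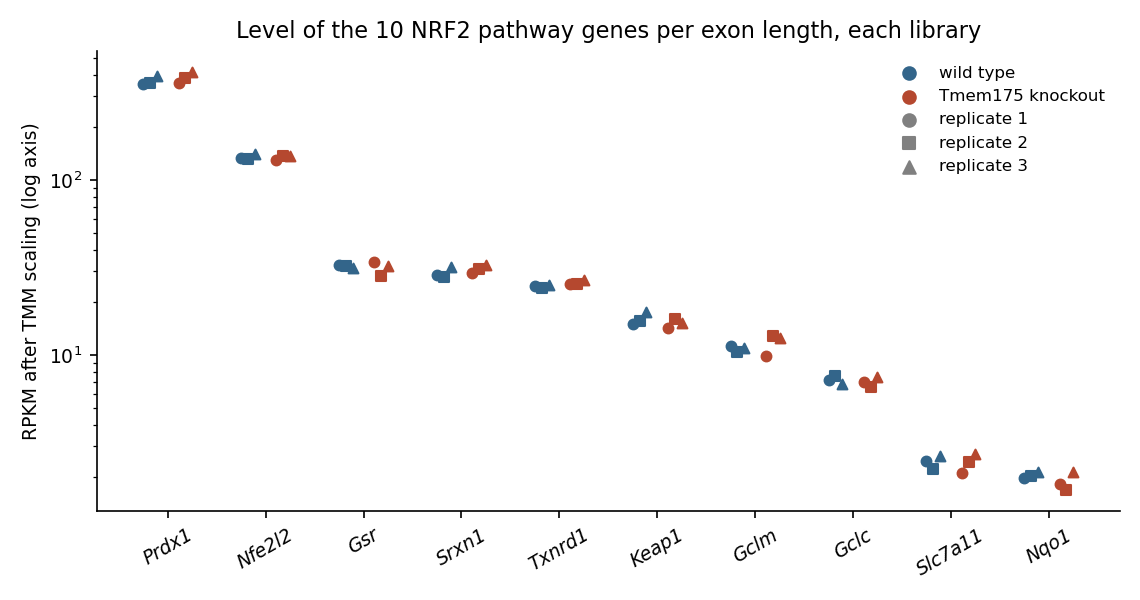
RPKM of each member in each library, on a log axis, with wild type in blue, knockout in red and a symbol for each replicate number. Prdx1 sits highest and Nqo1 lowest. For each gene the 2 genotypes lie close to each other. The ranges of Gsr and Srxn1 overlap, as do those of Slc7a11 and Nqo1.

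The comparison of genotypes asked whether macrophages labelled as Tmem175 knockout hold a different level of these transcripts. None of the 10 members passed in either direction (adjusted p under 0.05, edgeR quasi-likelihood test over 13588 genes), and none had an unadjusted p under 0.05. The DESeq2 test and limma-voom called none of them either. Among all tested genes 0.103% were called, 0.0147% higher and 0.0883% lower in knockout, which makes 14 genes in all. The largest differences among the members were 0.11 for Gclm and -0.12 for Nqo1, both on the log2 scale. The median log2 fold change of the members was -0.007, against -0.001 for all tested genes. It was positive for 4 members and negative for 6, and for 6743 and 6845 of all tested genes. Every 95% interval included 0, and for the 9 members other than Nqo1 the intervals lay between 0.850-fold and 1.24-fold.

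No tested marker of another marrow cell type was called by edgeR, beside 0.103% of all tested genes. Only 2 of the 4 lymphocyte markers and 0 of the 4 erythroid markers passed the filter on low counts and were tested. The summed levels of 3 of the 6 lists did not overlap between the genotypes, narrowly so for mast cells and basophils. Among single tested genes 10.8% did not overlap, and a share for summed lists was not computed. The summed level of 7 neutrophil markers was 691 to 741 CPM in knockout and 399 to 592 CPM in wild type libraries, and that of 4 mast cell and basophil markers was 5.71 to 12.8 and 12.9 to 21.1 CPM. The 4 dendritic cell markers summed to 12.8 to 20.1 CPM in knockout and 17.4 to 24.9 CPM in wild type libraries, the 4 lymphocyte markers to at most 2.59 CPM in knockout and at least 3.78 CPM in wild type libraries, the 4 erythroid markers to 0.0999 to 0.342 and 0.292 to 0.534 CPM with Hbb-bs at 0 in each library, and the 3 stromal markers to 12.8 to 26.4 and 8.01 to 34.7 CPM. Their part in the values of the members was not tested. In bulk samples such as these, fewer cells of a type and less RNA per cell cannot be told apart.

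**Figure D2:**
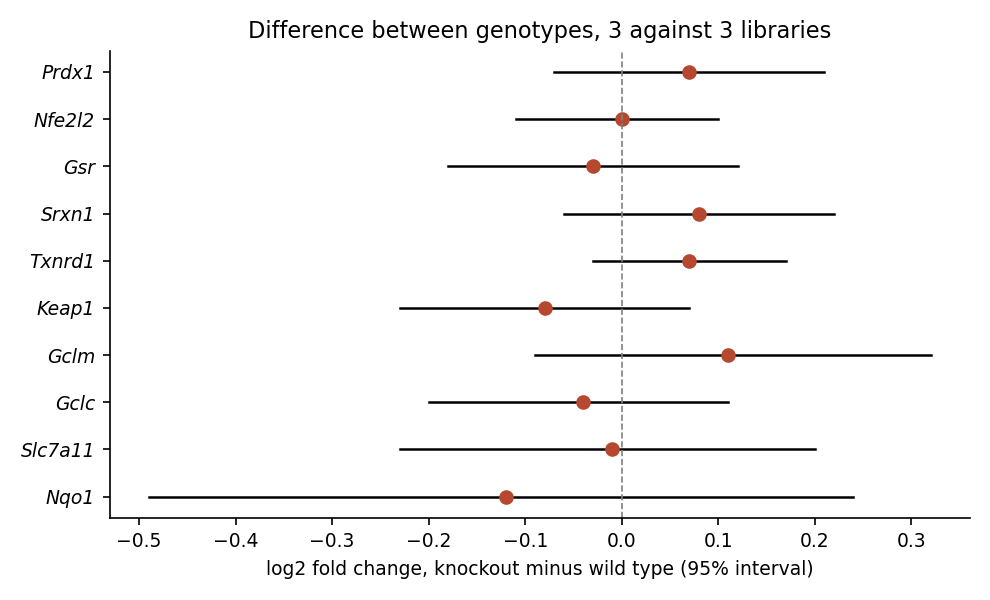
Log2 fold change of each member, knockout minus wild type, with its 95% interval from the edgeR fit, ordered by level per length. Each interval crosses 0, and that of Nqo1, the member with the fewest counts, is the widest at -0.49 to 0.24.

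The pair at the head of the pathway was level between the genotypes. Nfe2l2 (ENSMUSG00000015839, chromosome 2, 75675513 to 75704641) was at 496, 518 and 519 CPM in knockout and 504, 501 and 531 CPM in wild type libraries. The groups overlapped, with knockout replicate 1 lowest and wild type replicate 3 highest. Its log2 fold change was -0.003 (SE 0.05, 95% interval -0.11 to 0.10, adjusted p = 0.996, edgeR), and the highest library exceeded the lowest by a factor of 1.07, the smallest such ratio among the members. Keap1 (ENSMUSG00000003308, chromosome 9, 21229730 to 21239361), the adaptor that hands NRF2 to degradation, was at 66.5, 75.3 and 71.8 CPM in knockout and 70.4, 73.2 and 82.1 CPM in wild type libraries. The same 2 libraries were lowest and highest as for Nfe2l2, and the groups overlapped (log2 fold change -0.08, SE 0.07, 95% interval -0.23 to 0.07, adjusted p = 0.968). The antisense gene Gm16754 shares 510 bases, 10.9% of the exon length of Keap1, on the other strand, and reads of the pair cannot be told apart without strand.

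Among the members that supply cystine and build glutathione, Slc7a11 and Gclm varied most between libraries of all 10, each by a factor of 1.29 from lowest to highest. Slc7a11 (ENSMUSG00000027737, chromosome 3, 49892526 to 50443614), the cystine importer of system xc-, was at 29.4, 34.2 and 38.0 CPM in knockout and 34.4, 31.1 and 36.7 CPM in wild type libraries. The knockout libraries held both the lowest and the highest value, and the log2 fold change was -0.01 (SE 0.10, 95% interval -0.23 to 0.20, adjusted p = 0.994, edgeR). Gclc (ENSMUSG00000032350, chromosome 9, 77754535 to 77794485), the catalytic subunit of glutamate-cysteine ligase, which takes the rate-limiting step of glutathione synthesis, was at 26.3, 24.6 and 28.2 CPM against 27.2, 28.6 and 25.7 CPM. These groups overlapped as well (log2 fold change -0.04, SE 0.07, 95% interval -0.20 to 0.11, adjusted p = 0.979).

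Gclm (ENSMUSG00000028124, chromosome 3, 122245557 to 122270732), the modifier subunit of the same ligase, was at 62.3, 80.6 and 78.7 CPM in knockout and 70.5, 65.0 and 69.2 CPM in wild type libraries. Knockout replicate 1 was thus below each wild type library, and knockout replicates 2 and 3 were above each of them. The log2 fold change was 0.11 (SE 0.09, 95% interval -0.09 to 0.32, adjusted p = 0.968, edgeR); without knockout replicate 1 it was 0.23 (adjusted p = 0.248), still not called, and over all 14 alternatives it ran from 0.05 to 0.23 with adjusted p from 0.248 to 1.00. Exons of Gclm share 296 bases (4.71%) with Gm17494 on the other strand and 244 bases (3.88%) with the pseudogene Gm6061 on the same strand. Gsr (ENSMUSG00000031584, chromosome 8, 33652523 to 33698163), which returns oxidised glutathione to its reduced form, was at 93.8, 78.0 and 88.5 CPM in knockout and 90.2, 88.5 and 86.9 CPM in wild type libraries. Here the order within the knockout was turned round relative to Gclm, with replicate 1 highest and replicate 2 lowest of all 6 (log2 fold change -0.03, SE 0.07, 95% interval -0.18 to 0.12, adjusted p = 0.979).

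Of the thioredoxin and peroxiredoxin branch, Txnrd1 (ENSMUSG00000020250, chromosome 10, 82833951 to 82897712), the cytosolic thioredoxin reductase, was the 1 member whose groups did not overlap. It stood at 181, 180 and 189 CPM in knockout and 176, 170 and 177 CPM in wild type libraries. Each knockout library lay above each wild type library, also under the 3 other scalings, and by a small margin (log2 fold change 0.07, SE 0.04, 95% interval -0.03 to 0.17, adjusted p = 0.961, edgeR). Among all tested genes 5.73% had knockout libraries wholly above and 5.06% wholly below the wild type ones, 10.8% together, so 1 of 10 members is near the background.

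Prdx1 (ENSMUSG00000028691, chromosome 4, 116685544 to 116700822) reduces hydrogen peroxide with electrons from thioredoxin and was at 1095, 1167 and 1264 CPM in knockout against 1076, 1096 and 1188 CPM in wild type libraries. Groups overlapped, and knockout replicate 3 was highest (log2 fold change 0.07, SE 0.06, 95% interval -0.07 to 0.21, adjusted p = 0.971, edgeR). Srxn1 (ENSMUSG00000032802, chromosome 2, 152105516 to 152111376), sulfiredoxin, repairs overoxidised peroxiredoxins and was at 83.4, 87.2 and 92.4 CPM against 80.3, 78.8 and 89.6 CPM. Knockout replicate 3 was again highest, followed by wild type replicate 3 (log2 fold change 0.08, SE 0.06, 95% interval -0.06 to 0.22, adjusted p = 0.968). Nqo1 (ENSMUSG00000003849, chromosome 8, 107388225 to 107403206), a quinone reductase, rested on 74 to 90 counts per library. It was at 2.86, 2.63 and 3.35 CPM in knockout and 3.09, 3.16 and 3.34 CPM in wild type libraries. These values overlapped, and at this depth the interval of -0.49 to 0.24 around the estimate of -0.12 (log2 scale, SE 0.16, adjusted p = 0.979, edgeR) left room for larger differences than for the other members.

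The order of the 6 libraries was alike for some members. Nfe2l2, Prdx1 and Srxn1 had their 3 highest values in knockout replicates 2 and 3 and wild type replicate 3, the libraries with positive values on the first principal component, whose part in this order was not tested. Nfe2l2, Keap1, Gclm and Slc7a11 were lowest in knockout replicate 1. Of the 45 pairs of members, 29 had a positive and 16 a negative Pearson correlation of log2 CPM, with a median of 0.35. With deviations from the genotype mean in place of log2 CPM, 34 were positive and 11 negative, with a median of 0.56. The same correlations were not computed for genes outside the list. Over log2 CPM, Gclc and Gsr stood apart: each had a negative correlation with 7 of the 9 other members, with medians of -0.09 and -0.34. Some of these were near 0 and changed sign with deviations from the genotype mean. Gclc went from -0.09 to 0.22 with Txnrd1 and from -0.05 to 0.08 with Prdx1, and Gsr from -0.03 to 0.19 with Txnrd1.

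None of the 45 pairs passed after Benjamini-Hochberg adjustment (two-sided exact permutation test, lowest adjusted p = 0.375); 4 pairs had an unadjusted p under 0.05 by Pearson's r and 2 by Spearman's rho. With deviations from the genotype mean these numbers were 9 and 6, and again none passed after adjustment (lowest adjusted p = 0.125, permutation test). That permutation moved the deviations freely over the 6 libraries, although they are centred within each genotype. Its p-values can therefore be too small, and 9 and 6 cannot be set against 4 and 2. With 6 libraries there are 720 orderings, and a single pair at the smallest p that 1 ordering gives, 0.00139, would have an adjusted p of 0.0625, so a lone pair could not pass. Srxn1 and Prdx1, the enzyme pair of peroxiredoxin repair, had the largest coefficient, with r = 0.94 (exact permutation p = 0.00833, adjusted p = 0.375) and rho = 0.83 (exact permutation p = 0.0583, adjusted p = 0.681). It was 0.93 with deviations from the genotype mean, 0.98 without the 2 libraries farthest from the median of Srxn1, and 0.92 to 0.98 when 1 library was left out. For Nfe2l2 and Keap1, r was 0.86 (exact permutation p = 0.0208, adjusted p = 0.443) and rho 0.71 (exact permutation p = 0.136, adjusted p = 0.681), and r was 0.38 without the 2 libraries farthest from the median of Nfe2l2, so over log2 CPM this relation rested on them, though taking away the extremes of a measure also narrows its range. It was 0.93 with deviations from the genotype mean and 0.69 to 0.94 when 1 library was left out. Nfe2l2 and Slc7a11 had r = 0.85 (exact permutation p = 0.0417, adjusted p = 0.443) and rho = 0.89 (exact permutation p = 0.0333, adjusted p = 0.681), with r = 0.76 without the 2 farthest libraries.

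**Figure D3:**
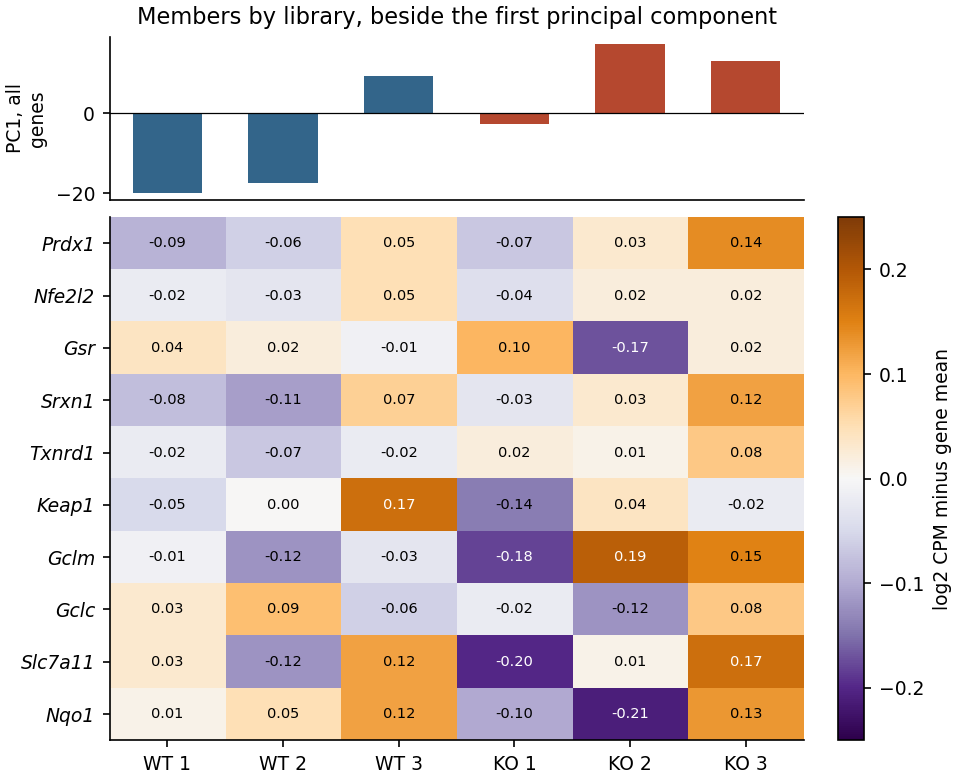
Log2 CPM of each member minus its mean over the 6 libraries (lower panel, orange above and purple below the mean) under the position of each library on the first principal component of all tested genes (upper panel, wild type blue, knockout red). Prdx1, Nfe2l2 and Srxn1 are above their means in wild type replicate 3 and knockout replicates 2 and 3, while Gsr is lowest in knockout replicate 2.

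The binding motif was looked up in the promoters because it is the feature by which NRF2 targets are thought to be read together. RefSeq windows on GRCm38.p6, from 250 bases before to 50 after each annotated start, were at hand for 8 of the 10 members, in 10 windows. Gclc and Gsr had none. A motif farther from the start than the window would be missed. The core TGACNNNGC, searched on both strands, was present for 5 of the 8 (Nfe2l2, Gclm, Txnrd1, Srxn1 and Prdx1), against 14.0% of 27025 genes and 12.4% of 32851 windows. The looser TGANNNNGC, which includes the first, was present for 7 of the 8 (all but Nqo1), against 12174 of the 27025 genes and 41.3% of windows. A narrower form of the looser motif, TGANTCAGC, was chosen after the letters had been seen, because Srxn1 and Prdx1 share it, so its sharing is no finding; 1.37% of genes and 1.19% of windows hold it. The matches of that pair to it (the core match of Srxn1 is another, after its start) and the core matches of the other 3 are shown 5′ to 3′ on the strand that reads the motif, with the motif in capitals and 10 bases either side.
Prdx1 (chr4:116685456-116685484, minus strand, 133 bases upstream): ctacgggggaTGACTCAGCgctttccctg
Srxn1 (chr2:152105469-152105497, plus strand, 45 bases upstream): aaattcacccTGAGTCAGCggccgggcgc
Gclm (chr3:122245413-122245441, minus strand, 134 bases upstream): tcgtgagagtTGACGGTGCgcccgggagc
Txnrd1 (chr10:82859104-82859132, minus strand, 92 bases upstream of the second of 3 annotated starts): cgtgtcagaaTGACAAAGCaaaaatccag
Nfe2l2 (chr2:75704885-75704913, minus strand, 240 bases upstream): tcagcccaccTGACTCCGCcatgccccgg
These are matches of letters in a short window and not measured binding, and the members were listed as genes of the NRF2 pathway to begin with.

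Genes around the members gave the same picture. Of 75 further genes in 5 lists, 70 were tested and none was called by edgeR, the DESeq2 test or limma-voom, beside 0.103% of all tested genes by edgeR. At an unadjusted p under 0.05, 3 were higher (Mafg, Sod1 and Trib3) and 2 lower (Osgin1 and Gstp1) in edgeR's fit, 7.14% of the 70 beside 5.44% of all tested genes. Groups did not overlap for 8 of the 70, with 6 above and 2 below, beside 10.8% of all tested genes, so this count is near the background.

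Among 10 partners and regulators of NRF2 the median log2 fold change was 0.002, with 5 positive and 5 negative. Mafg, a small MAF partner of NRF2, was at 115, 116 and 117 CPM in knockout and 111, 105 and 101 CPM in wild type libraries. Its groups did not overlap, and it was not called (log2 fold change 0.13, SE 0.05, adjusted p = 0.881, edgeR). Btrc, the F-box protein of another degradation route of NRF2, differed by 0.11 (log2 scale, SE 0.08) and Mafk, another small MAF, by -0.08 (SE 0.06), with adjusted p = 0.968 for both.

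Of 23 other NRF2 targets, 21 were tested, with a median of 0.012, 14 positive and 7 negative. Osgin1, an oxidative stress-induced growth inhibitor, had the smallest p of all the pathway genes. It was at 20.6, 19.1 and 19.6 CPM in knockout and 24.3, 22.4 and 25.4 CPM in wild type libraries, each knockout library below each wild type library. The log2 fold change of -0.28 (SE 0.07, 95% interval -0.44 to -0.13) did not pass over all genes (adjusted p = 0.446, edgeR), and its adjusted p ran from 0.102 to 1.00 over the 14 alternatives. Gstp1, a glutathione S-transferase whose reads may be shared with its near-identical neighbour Gstp2, was at 17.7, 14.8 and 17.2 CPM against 20.7, 17.9 and 22.7 CPM (log2 fold change -0.31, SE 0.10, adjusted p = 0.825). Taldo1, transaldolase of the pentose phosphate pathway, stood at 0.09 (SE 0.05, adjusted p = 0.942). Hmox1, heme oxygenase 1, the best-known target in macrophages and named here after its values were seen, was at 316, 326 and 347 CPM in knockout and 315, 325 and 341 CPM in wild type libraries, and these groups overlapped (log2 fold change 0.01, SE 0.05, 95% interval -0.10 to 0.13, adjusted p = 0.987). Gpx2 had a count of 0 in each library, and Gsta4 had 1 to 4 counts.

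The list of glutathione synthesis and use, with 11 of 13 genes tested, had a median of 0.002, 7 positive and 4 negative. Glo1 and Hagh, the 2 enzymes of the glyoxalase pathway, stood at 0.08 (SE 0.05, adjusted p = 0.966, edgeR) and 0.08 (SE 0.06, adjusted p = 0.968), and Gsto1, an omega class glutathione transferase, at 0.07 (SE 0.07, adjusted p = 0.972). All 15 genes of the thioredoxin, peroxiredoxin and superoxide dismutase list were tested. Their median was 0.027, with 12 positive and 3 negative, beside 6743 positive and 6845 negative among all tested genes. Sod1, the cytosolic superoxide dismutase, was at 150, 163 and 154 CPM in knockout and 145, 139 and 148 CPM in wild type libraries. Its groups did not overlap and it was not called (log2 fold change 0.11, SE 0.05, adjusted p = 0.908). Prdx4, a peroxiredoxin of the secretory pathway, stood at 0.15 (SE 0.08, adjusted p = 0.940) and Prdx2 at 0.07 (SE 0.05, adjusted p = 0.968).

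Slc7a11 is also a target of ATF4, the transcription factor of the amino acid stress response, so 14 genes of that response were set beside it. Of the 13 tested, 5 were positive and 8 negative, with a median of -0.029. Trib3, a pseudokinase induced by ATF4, was at 0.825, 1.30 and 0.837 CPM in knockout and 0.751, 0.534 and 0.517 CPM in wild type libraries, on 13 to 39 counts per library (log2 fold change 0.72, SE 0.32, 95% interval 0.01 to 1.43, adjusted p = 0.908, edgeR). Its groups did not overlap. Shmt2 at -0.12 (SE 0.06, adjusted p = 0.932) and Psat1 at -0.22 (SE 0.12, adjusted p = 0.941), enzymes of one-carbon and serine metabolism, lay the other way.

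**Figure D4:**
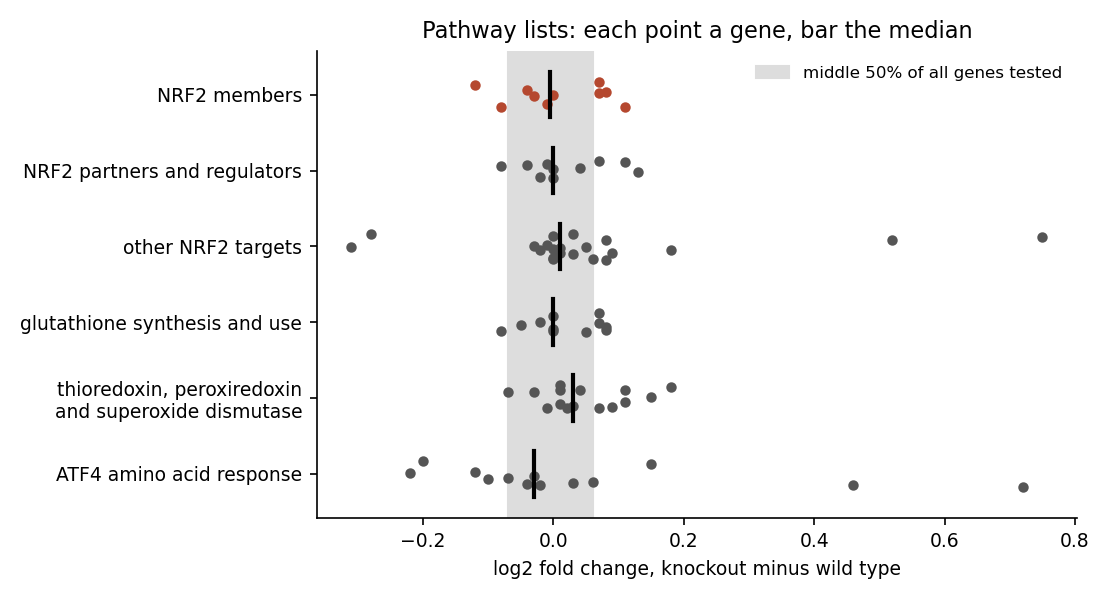
Log2 fold change, knockout minus wild type, of each tested gene (points) and the median (bar) for the members and the 5 further lists, over the range from the 25th to the 75th percentile of all tested genes (grey, -0.07 to 0.06). The medians lie within the grey range, and the points farthest from it are Gsta3, a glutathione S-transferase, at 0.75 and Trib3 at 0.72, neither of them called.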

How the data were processed

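The authors deposited raw counts per Ensembl gene. The submitters' processing notes list GRCm38, HISAT2 and featureCounts; the sources used here give no version, annotation release or strand setting. Without strand, and with reads of near-identical genes, some counts cannot be assigned to 1 gene. Symbols, positions and lengths came from GENCODE M21 on the same build, which matched 55240 of 55421 IDs. Counts were filtered with filterByExpr and scaled by TMM, and genotypes were compared with the two-sided quasi-likelihood test of edgeR 4.0.16 under R 4.3.3 with genotype as the only term and Benjamini-Hochberg adjustment over 13588 genes. Standard errors and 95% intervals were derived from the F statistic. CPM and RPKM were computed from the counts after TMM. Correlations used log2 CPM and an exact permutation of pairings, adjusted over 45 pairs. Every pair of libraries within a group differed by more than sampling noise (chi-square over degrees of freedom 3.66 to 17.6).

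Alternatives were 3 other scalings, 2 other filters, DESeq2 1.42.0, limma-voom (limma 3.58.1), a replicate block, leaving out each library, deviations from the genotype mean and coding length. Named genes are the 10 members and from each further list the called genes or else the 3 with the smallest p, with Tmem175 and Lyz2 as a check of the labels. The members and lists were chosen with earlier results of these data known. The code of the fit was run on simulated counts with planted changes. That of the correlations was run on random values with a planted exact linear copy. Finding that copy was fixed in advance, so it says nothing about the power of the permutation test.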

Additional observations from a re-analysis of the deposited data

How the results depend on the processing

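No member was called under any of the 14 alternatives of the fit, where the smallest adjusted p of a member was 0.248, and none of the 70 tested genes of the further lists was called. The number of members whose groups do not overlap was 1 under each scaling, and no pair of members passed in any alternative of the correlations. The sign held for 6 of the 10 members in all alternatives, but the size did not for most: when 1 library was left out, Keap1 ran from -0.13 to -0.01, Nqo1 from -0.22 to -0.05, Gclm from 0.05 to 0.23, Txnrd1 from 0.05 to 0.09, Srxn1 from 0.04 to 0.14 and Prdx1 from 0.01 to 0.12. For the other 4, whose values lay near 0, it changed: with library totals Nfe2l2 was 0.04, Slc7a11 0.03 and Gsr 0.01, and without a filter Nfe2l2 was 0.01. Without 1 library, Nfe2l2 ran from -0.02 to 0.02, Gclc from -0.09 to 0.01, Slc7a11 from -0.10 to 0.08 and Gsr from -0.09 to 0.05. Library totals moved the median of all genes by 0.043 on the log2 scale. With coding length the mean levels over the 6 libraries were 1922 RPKM for Prdx1, 286 for Nfe2l2, 183 for Srxn1, 97.2 for Txnrd1, 82.9 for Gclm, 58.4 for Gsr, 39.1 for Keap1, 22.2 for Slc7a11, 14.0 for Gclc and 3.74 for Nqo1, by the construction of that alternative. Equal replicate numbers did not deviate together, with correlations over genes of 0.0570, -0.123 and 0.0388. Those of unequal numbers ran from -0.168 (knockout replicate 1 with wild type replicate 3) to 0.143 (knockout replicate 2 with wild type replicate 3). With the replicate block 0 members and 17 genes in all were called, against 14 without it. Over the whole table the count was 151 without a filter, 5 when the filter was a mean of 10 CPM or more (which leaves out Nqo1) and 40 with the DESeq2 test. It was 4 to 12 when 1 library was left out: 12 without knockout replicate 1, 5 and 4 without knockout replicates 2 and 3, and 7, 6 and 9 without wild type replicates 1, 2 and 3. The cause of these differences in the count was not tested. Depth limits Nqo1, at 74 to 90 counts per library.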
